A study of Mus musculus with 8 samples.

Results

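This report follows 10 genes of MHC class I presentation and the immunoproteasome (B2m, H2-K1, H2-D1, Tap1, Tap2, Tapbp, Psmb8, Psmb9, Psmb10 and Nlrc5) through 4 subsets of mouse medullary thymic epithelial cells (mTECs). The genes were chosen by name among the 25466 genes of the count table, and all 10 were measured and passed the filter on low counts. Tspan8 is a tissue-restricted antigen that marks a small fraction of mTECs, and the study sorted mTECs by Tspan8 and by the level of surface MHCII, which is high in mature mTECs, to separate the effects of both. Surface MHCII is low in immature mTECs and again in late stages, so an MHCIIlo gate can hold both kinds of cell. The subsets were Tspan8negMHCIIlo, Tspan8negMHCIIhi, Tspan8posMHCIIhi and Tspan8posMHCIIlo, each with 2 RNA-seq libraries, 8 in all. All mice were wild type (wt), of the BL6N6 strain and 4 to 6 weeks old, with no treatment, and mTECs were gated as CD45neg Epcam-positive CDR1neg cells. The labels number the libraries of a subset as biological replicates without saying whether they came from separate animals or from pooled thymi, so p-values measure the spread between these libraries.

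MHC class I molecules show peptides of cytosolic and nuclear proteins to CD8+ T cells. The proteasome cuts the peptides, and in the immunoproteasome the catalytic subunits encoded by Psmb8, Psmb9 and Psmb10 take the places of the constitutive subunits encoded by Psmb5, Psmb6 and Psmb7. The Tap1 and Tap2 transporter carries peptides into the endoplasmic reticulum, tapasin (Tapbp) holds the empty class I molecule at the transporter, and a stable molecule is made of a heavy chain (H2-K1 or H2-D1) and beta-2-microglobulin (B2m). Nlrc5 is the transactivator of class I genes, as Ciita is of class II genes. In the thymus, mTECs use this route to display tissue-restricted self-antigens to developing CD8+ thymocytes.

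Of the 10 genes, 7 lie on chromosome 17, in or beside the MHC (GRCm38). Tapbp spans chr17:33915899-33929292 on the plus strand and H2-K1 spans chr17:33996017-34000347 on the minus strand. Psmb9 (chr17:34181987-34187764, minus), Tap1 (chr17:34187553-34197225, plus), Psmb8 (chr17:34197721-34201454, plus) and Tap2 (chr17:34203527-34216321, plus) are neighbours, and H2-D1 lies apart at chr17:35262730-35267499 on the plus strand. The others are outside the MHC, B2m at chr2:122147686-122153083 (plus), Nlrc5 at chr8:94434356-94527272 (plus) and Psmb10 at chr8:105935735-105938444 (minus).

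Promoter windows from 250 bases before to 50 bases after the start site were given by RefSeq for 8 of the 10 genes (GRCm38.p6). Windows for Tap2 and Nlrc5 were not used here. The windows of the light chain and of both heavy chains are shown because they share a spaced pair of motifs. The stretch common to the windows of Psmb9 and Tap1 is shown because these 2 members are read in opposite directions. It runs past both RefSeq starts, and by the gene coordinates above the 2 genes overlap. Capitals mark matches, on either strand, to the Y box (CCAAT), the core of the X2 box (TGACG), a kappa B site (GGGATTCCC), the core of an interferon response element (GAAA, any 2 bases, GAAA) and the gamma-activated site (TTCNNNGAA). The windows are chr2:122147437-122147736 (plus strand) for B2m, chr17:34000298-34000597 (minus strand) for H2-K1 and chr17:35262844-35263143 (plus strand) for H2-D1. The stretch common to Psmb9 and Tap1 is chr17:34187306-34187580 (plus strand).
B2m: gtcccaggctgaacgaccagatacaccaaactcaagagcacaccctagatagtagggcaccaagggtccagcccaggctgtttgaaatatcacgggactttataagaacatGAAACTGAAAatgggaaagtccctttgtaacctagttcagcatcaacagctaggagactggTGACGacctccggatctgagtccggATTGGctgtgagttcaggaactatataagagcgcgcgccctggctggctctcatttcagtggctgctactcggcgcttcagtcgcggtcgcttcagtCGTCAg
H2-K1: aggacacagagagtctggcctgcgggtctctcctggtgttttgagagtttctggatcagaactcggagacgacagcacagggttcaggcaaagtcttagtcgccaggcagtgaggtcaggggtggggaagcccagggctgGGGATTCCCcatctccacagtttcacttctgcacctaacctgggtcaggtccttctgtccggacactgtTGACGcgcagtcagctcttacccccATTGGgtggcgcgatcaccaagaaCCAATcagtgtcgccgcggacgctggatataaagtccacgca
H2-D1: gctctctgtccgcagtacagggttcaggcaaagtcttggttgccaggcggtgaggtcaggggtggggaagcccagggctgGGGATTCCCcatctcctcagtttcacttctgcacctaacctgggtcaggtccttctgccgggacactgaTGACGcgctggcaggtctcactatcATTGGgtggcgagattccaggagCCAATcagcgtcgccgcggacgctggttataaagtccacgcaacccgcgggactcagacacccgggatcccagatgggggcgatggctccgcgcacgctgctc
Psmb9 and Tap1: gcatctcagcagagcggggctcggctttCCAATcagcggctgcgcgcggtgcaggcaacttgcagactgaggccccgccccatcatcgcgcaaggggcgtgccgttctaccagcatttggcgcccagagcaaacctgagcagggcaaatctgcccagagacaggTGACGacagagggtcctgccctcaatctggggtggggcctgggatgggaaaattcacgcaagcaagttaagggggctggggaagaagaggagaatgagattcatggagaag

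In B2m, H2-K1 and H2-D1, TGACG was followed by ATTGG, the reversed Y box, with 25 bases from the first base of the one to the first base of the other. This arrangement was present in 31 of 32851 promoter windows (0.0944%), which belonged to 27 genes, among them the class I-like gene H2-M3. By comparison, CCAAT alone was present in 37.4% and TGACG alone in 20.8% of windows. The kappa B site was present in 0.353% of windows and stood upstream of the pair in both heavy chain genes. B2m held GAAACTGAAA 139 bases before its start, a motif present in 3.44% of windows. Only exact matches to the 5 patterns were searched, so a window without a match may still hold a variant of the motif. The RefSeq starts of Psmb9 and Tap1 were 226 bases apart on opposite strands, and the bases between these starts held a Y box and an X2 core in another spacing. Psmb8 held a gamma-activated site 97 bases before its start (8.3% of windows), Tapbp held 2 reversed Y boxes, and none of the 5 motifs was found in the window of Psmb10. A match describes these letters and says nothing on binding.

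Library totals ranged from 1941518 to 7783841 estimated counts, a 4.01-fold range, and the 10 genes together took 0.8986% to 1.427% of the counts. The lowest count of any member in any library was 134 (Psmb10), so counting error was small for all of them. Levels are given as CPM, counts scaled to the normalised library total, and are ordered by replicate 1 and 2. The sort was reflected in the RNA, since Tspan8 was at 3.64 to 14.57 CPM in the Tspan8neg and at 346.3 to 403.2 CPM in the Tspan8pos libraries, and H2-Ab1, a class II chain, was at 4972 and 5081 CPM in Tspan8negMHCIIhi against 516.2 and 487.4 CPM in Tspan8posMHCIIlo. Epcam was present in every library (366 to 1077 CPM), as were Aire, Fezf2 and Foxn1. The library Tspan8negMHCIIlo replicate 2 stood apart by thymocyte markers: the 12 markers summed to 1270 CPM in it and to 451.6 CPM in replicate 1, against 74.83 to 235.7 CPM in the other 6 libraries, and none of the 12 was at 0 in both libraries of a subset. In bulk samples, fewer cells of a type and less RNA per cell cannot be told apart.

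The heavy and light chain genes were the most abundant members and were lowest in Tspan8negMHCIIlo. Per kb of exon, the mean level of H2-K1 was 2127, 2592, 3534 and 3407 CPM per kb in Tspan8negMHCIIlo, Tspan8negMHCIIhi, Tspan8posMHCIIhi and Tspan8posMHCIIlo, and that of Nlrc5, the least abundant member, was 24.23, 22.01, 30.85 and 38.73 CPM per kb in the same order. H2-K1, a classical class I heavy chain, had 3875 and 3165 CPM in Tspan8negMHCIIlo, 4332 and 4247 CPM in Tspan8negMHCIIhi, 5679 and 6018 CPM in Tspan8posMHCIIhi, and 5652 and 5625 CPM in Tspan8posMHCIIlo. All 4 Tspan8pos libraries were above all 4 Tspan8neg libraries, whichever MHCII gate they came from. H2-D1, the other classical heavy chain, had 2826 and 2436, 3293 and 3301, 3770 and 4133, and 4552 and 4261 CPM in the same order of subsets. The 4 subsets of H2-D1 did not overlap, and each step between neighbours in the order missed the threshold, the closest being Tspan8negMHCIIhi over Tspan8negMHCIIlo (log2 difference 0.33, SE 0.114, adjusted p = 0.0388).

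B2m, which pairs with every class I heavy chain, had 1747 and 1440 CPM in Tspan8negMHCIIlo, 2573 and 3052 CPM in Tspan8negMHCIIhi, 3317 and 3046 CPM in Tspan8posMHCIIhi, and 2519 and 2270 CPM in Tspan8posMHCIIlo. Tspan8negMHCIIlo was below the other 6 libraries, and the MHCIIhi subsets overlapped each other. In its order of levels only the lowest step, Tspan8posMHCIIlo over Tspan8negMHCIIlo, passed an adjusted p of 0.01 (log2 difference 0.59, SE 0.136, adjusted p = 0.0052). The difference between the extremes, Tspan8posMHCIIhi over Tspan8negMHCIIlo, was 1.00 on the log2 scale (SE 0.136, adjusted p = 0.000149).

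**Figure D1:**
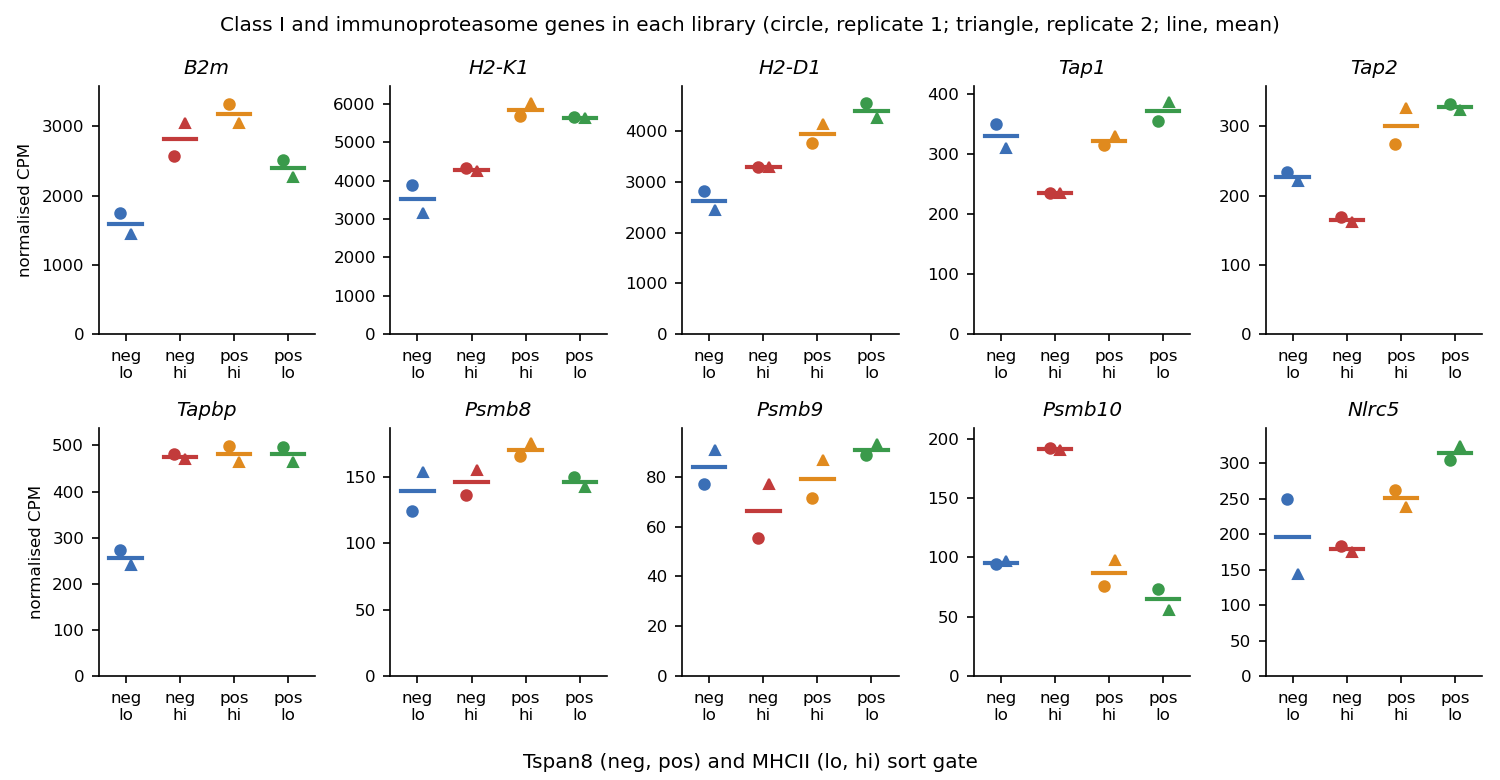
Normalised CPM (y axis, from 0, a scale of its own in each panel) of the 10 genes in each library of the 4 sorted subsets (x axis), with circles for replicate 1, triangles for replicate 2 and lines for the mean. H2-K1 is higher in the 4 Tspan8pos libraries, Tapbp is low in Tspan8negMHCIIlo alone (272.7 and 240.9 CPM), and Psmb10 is high in Tspan8negMHCIIhi alone (192.4 and 190.9 CPM).

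The peptide transporter and the loading factor had different profiles. Tap1, the transporter chain encoded beside Psmb9, had 350 and 309.3 CPM in Tspan8negMHCIIlo, 235.1 and 235.6 CPM in Tspan8negMHCIIhi, 314.4 and 329.7 CPM in Tspan8posMHCIIhi, and 355.6 and 385.9 CPM in Tspan8posMHCIIlo. Tap2, the other chain of the transporter, had 234.1 and 220.7, 168.7 and 161.6, 274.7 and 325.9, and 332.6 and 323.6 CPM in the same order. Both chains were lowest in Tspan8negMHCIIhi, in which class II genes were highest, without overlap with any other library. Tapbp, tapasin, had 272.7 and 240.9, 480.5 and 471.3, 499.4 and 463.2, and 496.5 and 464.9 CPM. The other 6 libraries of Tapbp lay within 463.2 to 499.4 CPM, and only the lowest step of its order passed an adjusted p of 0.01 (Tspan8negMHCIIhi over Tspan8negMHCIIlo, log2 difference 0.89, SE 0.125, adjusted p = 0.000225).

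The 3 catalytic subunits of the immunoproteasome did not share a profile. Psmb10 (MECL-1) had 94.35 and 97.07 CPM in Tspan8negMHCIIlo, 192.4 and 190.9 CPM in Tspan8negMHCIIhi, 75.83 and 97.62 CPM in Tspan8posMHCIIhi, and 73.43 and 56.06 CPM in Tspan8posMHCIIlo. It was the only member that was highest in Tspan8negMHCIIhi, above the other 6 libraries, and the other 3 subsets lay between 56.06 and 97.62 CPM. Psmb8 (LMP7) had 124.6 and 154, 136.6 and 155.1, 165.6 and 175.4, and 150.1 and 142.1 CPM. Psmb9 (LMP2) had 76.99 and 90.73, 55.55 and 76.91, 71.26 and 86.68, and 88.77 and 92.93 CPM. Neither Psmb8 nor Psmb9 passed the test in any of the 6 comparisons of subsets, and most neighbouring subsets overlapped.

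Nlrc5, the class I transactivator, had 249.2 and 144.3 CPM in Tspan8negMHCIIlo, 183 and 174.4 CPM in Tspan8negMHCIIhi, 263 and 238 CPM in Tspan8posMHCIIhi, and 304.7 and 324.2 CPM in Tspan8posMHCIIlo. The 2 Tspan8negMHCIIlo libraries spanned both Tspan8negMHCIIhi values, and no step between neighbours passed the threshold. Its highest subset exceeded Tspan8negMHCIIhi by 0.82 on the log2 scale (SE 0.209, adjusted p = 0.00701), a pass that several alternatives did not keep. Over all 10 genes the highest mean was in Tspan8posMHCIIlo for 5, in Tspan8posMHCIIhi for 4 and in Tspan8negMHCIIhi for 1, and the lowest mean was in Tspan8negMHCIIlo for 5, in Tspan8negMHCIIhi for 4 and in Tspan8posMHCIIlo for 1.

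The comparison of Tspan8pos with Tspan8neg mTECs in the MHCIIlo gate asked how the Tspan8-bearing cells differ when surface MHCII is low. H2-D1 (log2 fold change 0.74, SE 0.115, adjusted p = 0.000395), H2-K1 (0.68, SE 0.117, adjusted p = 0.000836) and B2m (0.59, SE 0.136, adjusted p = 0.0052) were higher in Tspan8posMHCIIlo by 1.5 to 1.67 times. Tapbp was 1.87 times higher (log2 0.90, SE 0.126, adjusted p = 0.000196) and Tap2 was 1.44 times higher (log2 0.53, SE 0.132, adjusted p = 0.00799). Of the 10 genes, 0 were called at an adjusted p under 0.01 with a 2-fold limit in edgeR's quasi-likelihood test, against 21.4% of the 17006 genes tested, and 0 were called by DESeq2. Without the fold limit 5 passed, all higher, where 15.8% of all genes were higher by that rule and 27.9% passed in either direction, and 7 had an unadjusted p under 0.05. The median log2 fold change of the 10 genes was 0.56, and that of all genes was -0.03. Nlrc5 (0.68, SE 0.21, adjusted p = 0.0231) and Psmb10 (-0.59, SE 0.173, adjusted p = 0.018) missed the threshold.

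The thymocyte list moved with this comparison, 5 of its 11 tested markers being called lower in Tspan8posMHCIIlo. The cortical epithelial (cTEC) markers were lower too, 3 of 6 being called (sums of 1185 and 1035 CPM in Tspan8negMHCIIlo against 483.3 and 558.1 CPM). Most of that sum came from Ctsl (950.2 and 603.6 against 368.8 and 394.3 CPM), while Psmb11 was at 6.439 and 18.8 against 2.192 and 5.307 CPM. Single markers of other lists were called in both directions. Called lower were 2 of 6 dendritic cell, 1 of 7 fibroblast and endothelial and 1 of 5 B cell markers. Called higher were 1 B cell and 1 of 8 macrophage markers. Over all 17006 genes tested, 1588 were called lower and 2052 higher. The part of these markers in these results was not tested. Without Tspan8negMHCIIlo replicate 2, the library with the most thymocyte RNA, H2-K1 (0.54), H2-D1 (0.64) and Tapbp (0.82) still passed an adjusted p of 0.01, while B2m (0.45, adjusted p = 0.014) and Tap2 (0.49, adjusted p = 0.0231) did not. The count of 5 was also 3 without any of the 4 Tspan8pos libraries, and 2 in a fit of only the 4 MHCIIlo libraries. The value of Nlrc5 rested on which of the Tspan8negMHCIIlo libraries was used: it was 0.34 (adjusted p = 0.0886) without replicate 2 and 1.12 (adjusted p = 4.02e-05), past both limits, without replicate 1.

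In the MHCIIhi gate, Tspan8pos mTECs had less Psmb10 and more Tap2 than Tspan8neg mTECs. Psmb10 was 2.21 times lower (log2 fold change -1.14, SE 0.164, adjusted p = 0.000273) and was the 1 member called, against 7.45% of all genes called lower and 18.5% called in either direction. Tap2 was 1.82 times higher (0.86, SE 0.132, adjusted p = 0.000416), below the 2-fold limit, so that 2 members passed the adjusted p, against 25.0% of all genes. H2-K1 (0.45, SE 0.116, adjusted p = 0.0109), Tap1 (0.45, SE 0.125, adjusted p = 0.015) and Nlrc5 (0.49, SE 0.207, adjusted p = 0.087) missed the threshold, and Tapbp was at 0.02 (SE 0.123). The median of the 10 genes was 0.25 and that of all genes was -0.03. Without Tspan8posMHCIIhi replicate 1 the called gene was Tap2 (1.00), not Psmb10 (-0.95, adjusted p = 0.00722). Without the fold limit, 1 member passed without either Tspan8negMHCIIhi library and 5 passed without either Tspan8negMHCIIlo library. Markers of other cells moved with this comparison: 3 of 6 dendritic cell markers, 2 of 8 macrophage markers, 2 of 7 fibroblast and endothelial markers and 1 of 5 B cell markers were called lower in Tspan8posMHCIIhi, and 0 were called higher. The dendritic cell markers summed to 90.32 and 91.14 CPM there against 244.8 and 244 CPM in Tspan8negMHCIIhi, and the macrophage markers to 328.3 and 346.7 against 391.6 and 449.7 CPM. Their part in the result was not tested.

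**Figure D2:**
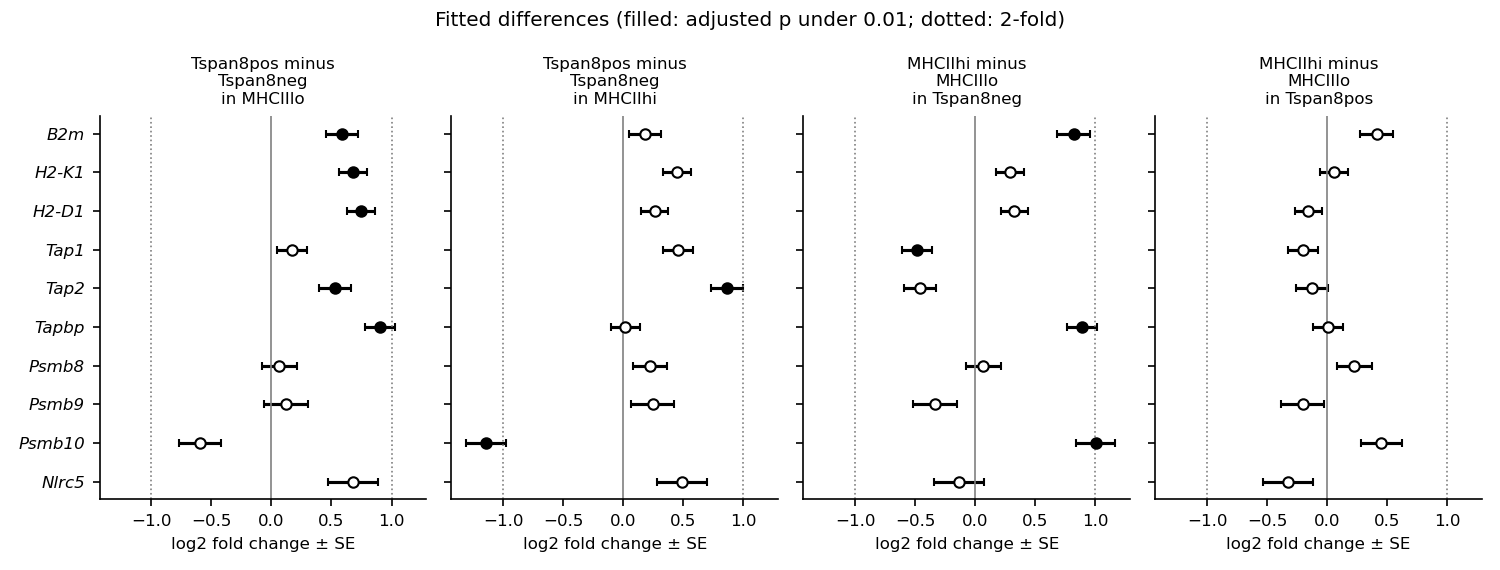
Fitted log2 fold changes (x axis) of the 10 genes (y axis) in the 4 comparisons, with bars of 1 SE. Filled points pass an adjusted p of 0.01 and dotted lines mark 2-fold changes; only Psmb10 reaches a dotted line, at -1.14 and 1.00, and no point is filled for MHCIIhi against MHCIIlo in Tspan8pos mTECs.

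The comparison of MHCIIhi with MHCIIlo in Tspan8neg mTECs asked how the genes differ with surface MHCII in cells without the antigen, and the MHCIIlo gate may mix immature with late mTECs. Psmb10 was 2-fold higher in Tspan8negMHCIIhi (log2 1.00, SE 0.164, adjusted p = 0.000622), Tapbp was 1.85 times higher (0.89, SE 0.125, adjusted p = 0.000225) and B2m was 1.77 times higher (0.82, SE 0.136, adjusted p = 0.000663). Tap1 was 1.4 times lower (-0.49, SE 0.126, adjusted p = 0.0093), and Tap2 had a like value that missed the threshold (-0.46, SE 0.132, adjusted p = 0.0155). Of the 10 genes 1 was called, Psmb10, against 13.1% of all genes called higher and 22.7% in either direction. Without the fold limit 4 of 10 passed, 3 higher and 1 lower, where 29.4% of all genes passed. The median of the 10 genes was 0.18 and that of all genes was -0.04.

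Psmb10 stood at the 2-fold limit in this comparison. Its value was 0.97 to 1.10 when any library was left out, with an adjusted p of at most 0.00454, and it fell short of the limit without Tspan8negMHCIIlo replicate 1 (0.97) and without any of the 4 Tspan8pos libraries (0.9942 to 0.9957). B2m passed the limit (1.03) without Tspan8negMHCIIhi replicate 1. Tap1 missed the adjusted p of 0.01 under DESeq2, its size factors, both other filters and the fit of 4 libraries, and without any library other than Tspan8negMHCIIlo replicate 2 (adjusted p from 0.0145 to 0.128). Markers of other cell types moved here too: the 8 macrophage markers, led by Lyz2, summed to 391.6 and 449.7 CPM in Tspan8negMHCIIhi and to 45.92 and 94.49 CPM in Tspan8negMHCIIlo, and the 8 dendritic cell markers to 244.8 and 244 against 89.87 and 109.3 CPM. Most of the dendritic cell sum came from Ccr7 (149.9 and 142.3 against 44.24 and 56.41 CPM) and Zbtb46 (70.89 and 70.4 against 26.88 and 17.16 CPM). That list was mixed, since 4 of its 6 tested markers had positive and 2 had negative values. Itgax was lower in value (4.146 and 6.133 against 9.239 and 25.62 CPM). Of the tested markers, 3 of 8 macrophage and 3 of 6 dendritic cell markers were called higher and 8 of 11 thymocyte markers were called lower. Of 7 fibroblast and endothelial markers 2 were called higher and 3 lower, and of 6 cTEC markers 2 higher and 1 lower. Of all genes, 13.1% were called higher and 9.67% lower. No marker of these lists was at 0 in both libraries of either subset. The part of these markers in the result was not tested.

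Within Tspan8pos mTECs the MHCII gate left these genes with small differences. B2m (0.41, SE 0.135, adjusted p = 0.0619) and Psmb10 (0.45, SE 0.173, adjusted p = 0.103) had the largest values, and the other 8 lay between -0.33 (Nlrc5, SE 0.207) and 0.23 (Psmb8, SE 0.145). Of the 10 genes 0 passed the adjusted p in edgeR and 0 in DESeq2, with or without the fold limit, against 7.21% of all genes called and 9.07% past the adjusted p, and 2 had an unadjusted p under 0.05. In a fit of only the 4 Tspan8pos libraries, B2m passed the adjusted p (0.43, adjusted p = 0.00953). The median was -0.06 for the 10 genes and 0.01 for all genes. At these standard errors of 0.114 to 0.207, a change well under 2-fold could be missed. Markers of other cells differed here as well. In Tspan8posMHCIIhi, 2 of 8 macrophage, 1 of 6 dendritic cell and 2 of 6 cTEC markers were called higher. Of 7 fibroblast and endothelial markers, 2 were called lower. The part of these markers in the values of the 10 genes was not tested.

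The 9 class II genes gave a measure of scale. All 9 were called higher in Tspan8posMHCIIhi than in Tspan8posMHCIIlo, with a median log2 fold change of 2.33, and 8 of 9 were called higher in Tspan8negMHCIIhi than in Tspan8negMHCIIlo, with a median of 1.54. Surface MHCII was a sort criterion, so the direction of these genes was set by the gate. H2-DMb2, a chain of the peptide exchange factor of class II, had 23.56 and 21.5 CPM in Tspan8posMHCIIlo and 179.7 and 205.6 CPM in Tspan8posMHCIIhi. In the same libraries H2-K1, which differed little (log2 0.05), lay between 5625 and 6018 CPM. The largest log2 values among the members were 0.45 (Psmb10) and 0.41 (B2m).

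**Figure D3:**
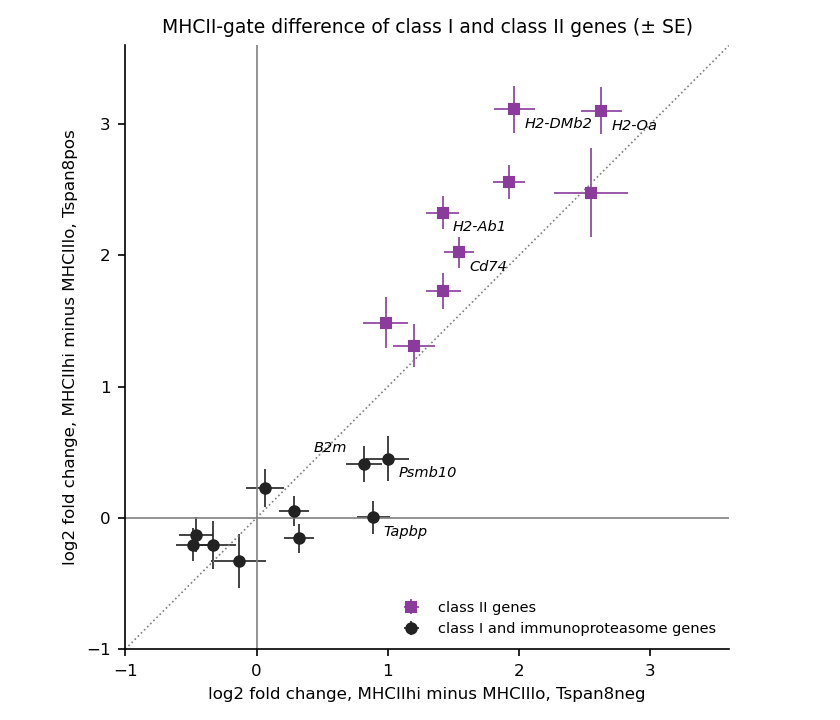
Log2 fold change from MHCIIlo to MHCIIhi in Tspan8neg mTECs (x axis) and in Tspan8pos mTECs (y axis) for the 10 class I and immunoproteasome genes (circles) and 9 class II genes (squares), with bars of 1 SE and a dotted line of equal change. The class II genes lie at medians of 1.54 and 2.33, while the class I genes lie between -0.49 and 1.00 on the x axis and between -0.33 and 0.45 on the y axis.

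The difference between the MHCII effects of the 2 Tspan8 classes was tested as an interaction. Tapbp passed an adjusted p of 0.01 (log2 -0.89, SE 0.176, adjusted p = 0.00895): it was 0.89 higher in MHCIIhi in Tspan8neg and 0.00 in Tspan8pos mTECs. Its adjusted p stayed under 0.01 with DESeq2 (2.46e-05) and without either Tspan8negMHCIIlo library (0.00254 and 0.00733), and lay between 0.0329 and 0.0482 without any library of the other subsets. The other 9 genes missed the threshold, the nearest being H2-D1 (-0.48, SE 0.161, adjusted p = 0.0775). Of the 10 genes 0 were called with the fold limit by edgeR and 0 by DESeq2, against 4.60% of all genes, 1 passed without it, against 4.69% in either direction and 2.39% that were lower, and 3 had an unadjusted p under 0.05.

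Members moved in opposite directions along the diagonal from Tspan8negMHCIIhi to Tspan8posMHCIIlo. Psmb10 was 3.02 times lower in Tspan8posMHCIIlo (log2 -1.60, SE 0.171, adjusted p = 1.91e-05), while Tap2 was 1.99 times (0.99, SE 0.132, adjusted p = 9.72e-05), Nlrc5 1.76 times (adjusted p = 0.00701) and Tap1 1.58 times higher (0.66, SE 0.126, adjusted p = 0.00124). Psmb10 was the 1 member called, against 14.6% of all genes called lower and 29.3% in either direction. The passes of Nlrc5 and Tap1 were not kept throughout: Nlrc5 missed the adjusted p of 0.01 with DESeq2 size factors and without any library of the subsets other than Tspan8negMHCIIlo, and Tap1 missed it without either Tspan8negMHCIIhi library and without Tspan8posMHCIIlo replicate 2. Of the markers of other cells, 5 of 8 macrophage, 3 of 6 dendritic cell, 3 of 6 cTEC, 2 of 5 B cell and 2 of 7 fibroblast and endothelial markers were called lower in Tspan8posMHCIIlo, with macrophage sums of 126.6 and 117 CPM against 391.6 and 449.7 CPM, and the dendritic cell marker Clec9a was at 0 in both its libraries. In the other direction, 2 fibroblast and endothelial markers and 1 each of the thymocyte, cTEC and B cell markers were called higher. Their part in the result was not tested. Over the 8 libraries, the log2 levels of H2-K1 and H2-D1 had a Pearson r of 0.96, those of Tap1 and Tap2 of 0.89, those of the divergent neighbours Tap1 and Psmb9 of 0.72 and those of Tap1 and Psmb10 of -0.95. Of the 45 pairs of members 32 had an r above 0, with a median of 0.31. These values describe 8 libraries that share 4 subsets and 1 scaling.

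To set the immunosubunits against the subunits they replace, the log2 ratio per exon length was taken within each library. Psmb8 to Psmb5 had ratios between 0.27 and 0.64 in all 8 libraries, so by these estimated counts the transcript of the immunosubunit was the more abundant of the pair. Psmb5 shares 50.8% of its 54-base windows with other genes, so its level and this ratio are uncertain. Psmb9 to Psmb6 had ratios between -1.90 and -0.81. Psmb10 to Psmb7 had 0.04 and 0.12 in Tspan8negMHCIIlo, 0.74 and 0.66 in Tspan8negMHCIIhi, -0.52 and 0.03 in Tspan8posMHCIIhi, and -0.19 and -0.54 in Tspan8posMHCIIlo. The 4 Tspan8pos libraries were all below the 4 Tspan8neg libraries for this pair.

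The mean Psmb10 to Psmb7 ratio was 0.70 lower in Tspan8pos than in Tspan8neg mTECs (a log2 difference of -0.70; -0.30 against 0.39; two-sided exact permutation p = 0.0286, the smallest that 4 against 4 allows, and 0.171 after adjustment over 6 tests). The Psmb9 to Psmb6 ratio differed by -0.40 between MHCIIhi and MHCIIlo (exact permutation p = 0.0571, adjusted p = 0.171). None of the 6 tests passed an adjusted p of 0.05, and none could have. A ratio cannot reach the smallest p of 0.0286 for both gates, which leaves too few such values to pass after adjustment. The adjusted values therefore do not decide whether the ratios differ. The constitutive genes Psmb5, Psmb6 and Psmb7 passed the test in none of the 4 comparisons of neighbouring subsets, with log2 fold changes between -0.21 and 0.38. Psmb11, the thymoproteasome subunit of cortical epithelium, was between 2.19 and 18.8 CPM.

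**Figure D4:**
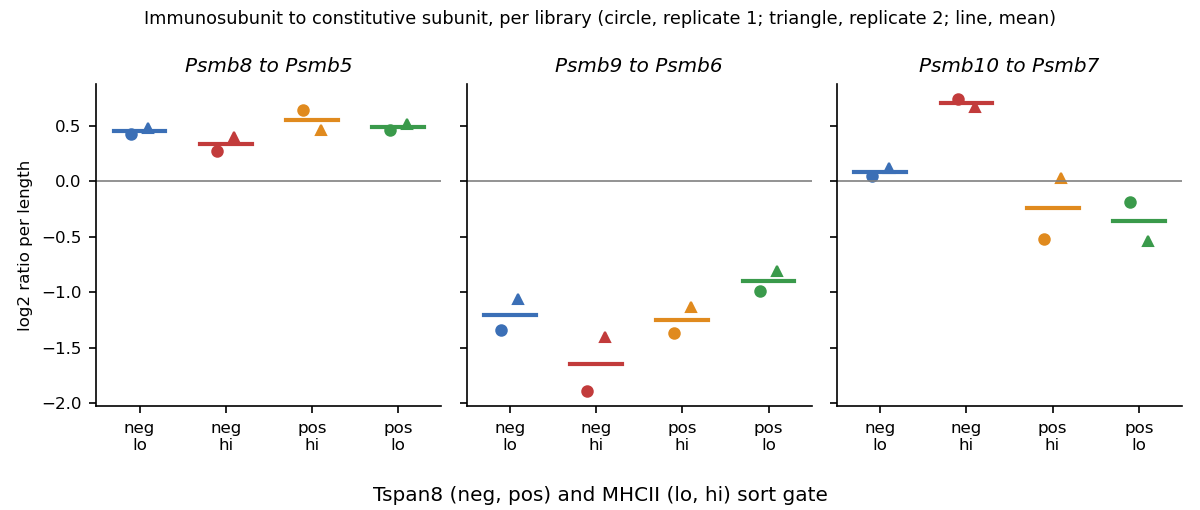
Log2 ratio per exon length (y axis) of each immunosubunit to the constitutive subunit it replaces, in each library of the 4 subsets (x axis), with circles for replicate 1, triangles for replicate 2, lines for the mean and a grey line at equal levels. Psmb8 to Psmb5 stays between 0.27 and 0.64, Psmb9 to Psmb6 below 0, and Psmb10 to Psmb7 is highest in Tspan8negMHCIIhi (0.74 and 0.66).

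Of 11 structural 20S genes and 18 genes of the 19S cap, 0 were called in any of the 4 comparisons of neighbouring subsets. Of all genes, 21.4% were called for Tspan8 in MHCIIlo, 18.5% for Tspan8 in MHCIIhi, 22.7% for MHCII in Tspan8neg and 7.21% for MHCII in Tspan8pos. Without the fold limit these shares were 27.9%, 25.0%, 29.4% and 9.07% in the same order. Without the fold limit 2 of the 11 20S genes, Psma6 (0.93, adjusted p = 0.000385) and Psma4 (0.64, adjusted p = 0.00326), were higher in Tspan8negMHCIIhi than in Tspan8negMHCIIlo, where 29.4% of all genes passed. Psma5 was lower in Tspan8posMHCIIlo than in Tspan8negMHCIIlo (-0.82, adjusted p = 0.00157) and higher in Tspan8posMHCIIhi than in Tspan8posMHCIIlo (0.72, adjusted p = 0.0083). Of the 19S genes, Psmd8 was higher in Tspan8pos mTECs in MHCIIlo (0.72, adjusted p = 0.00241) and Psmd4 in MHCIIhi (0.52, adjusted p = 0.00939). The PA28 activator, which opens the proteasome, is encoded by Psme1 and Psme2, and Psme2 differed with both sort gates. Psme2 had 304.1 and 315.1 CPM in Tspan8negMHCIIhi against 136.1 and 147.6 CPM in Tspan8negMHCIIlo (log2 1.13, adjusted p = 5.74e-05, the 1 called gene of 9), and it was 0.79 higher in Tspan8posMHCIIhi than in Tspan8posMHCIIlo (adjusted p = 0.0019). In MHCIIhi, Psme2 was lower in Tspan8pos than in Tspan8neg mTECs (-0.56, adjusted p = 0.00497). Psme1 was 0.55 higher in Tspan8negMHCIIhi (adjusted p = 0.00588) and 0.43 higher in value in Tspan8posMHCIIhi (adjusted p = 0.0476, not passed).

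Among the genes that fold, load and export class I and other chains in the endoplasmic reticulum, 13 of 16 had their highest mean in Tspan8negMHCIIhi. This was not particular to the list, as 10 of the 11 structural 20S genes were highest there too. The share of all genes highest in that subset was not counted. Of the 16, 3 were called higher in MHCIIhi within Tspan8neg mTECs, where 13.1% of all genes were called higher, and 0 within Tspan8pos mTECs. Canx, the chaperone calnexin, passed without the fold limit (0.81, adjusted p = 0.000649). Calr, calreticulin, had 1773 and 1886 CPM in Tspan8negMHCIIhi and 809.7 to 985.3 CPM in the other 6 libraries, and its interaction was called (-1.16, adjusted p = 0.00117). Hspa5, the chaperone BiP, had 2306 and 2289 CPM against 896.2 to 1295 CPM elsewhere, with a called interaction (-1.15, adjusted p = 0.00221). Pdia3 (ERp57), the partner of tapasin in the loading complex, was 1.10 higher in Tspan8negMHCIIhi than in Tspan8negMHCIIlo (adjusted p = 5.19e-05), with an interaction of -0.84 that missed the threshold (adjusted p = 0.0112). Pdia6, another disulfide isomerase, had 303.7 and 295.1 CPM in Tspan8negMHCIIhi and 116.3 and 133.7 CPM in Tspan8posMHCIIhi, and was the 1 gene called between these subsets (-1.26, adjusted p = 5.78e-05). Tapbp, by its values, was as high in both Tspan8pos subsets as in Tspan8negMHCIIhi.

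Cytosolic peptidases trim or destroy peptides before transport. Of 9 tested, 2 were called higher in Tspan8pos than in Tspan8neg mTECs in MHCIIlo and 4 in MHCIIhi, and 0 lower, where 12.1% and 11.0% of all genes were called higher. The medians of the list were 0.695 in MHCIIlo and 0.686 in MHCIIhi, against -0.03 for all genes. Ide, the insulin-degrading enzyme, had 296.9 to 349 CPM in the 4 Tspan8pos libraries and 54.52 to 70.91 CPM in the 4 Tspan8neg libraries (log2 2.37 and 2.36, adjusted p = 2.1e-06 and 2.17e-06). Blmh, bleomycin hydrolase, was called in both gates (1.21 and 1.32), and Lap3 (1.26) and Npepps (1.09), both aminopeptidases, were called in MHCIIhi. No gene of this list was called between MHCIIhi and MHCIIlo.

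Of the other class I heavy chains, 18 of 19 in the table were tested. H2-T22, a ligand of gamma delta T cell receptors, had 346.3 to 352 CPM in the 4 Tspan8pos libraries, 153 and 162.8 CPM in Tspan8negMHCIIhi and 223.1 and 197.9 CPM in Tspan8negMHCIIlo (called in MHCIIhi, 1.14, adjusted p = 3.95e-05). Mr1, which presents vitamin B metabolites, was likewise called in MHCIIhi (1.62, adjusted p = 0.00012). H2-M2 was called higher in Tspan8posMHCIIhi than in Tspan8posMHCIIlo (1.47, adjusted p = 6.89e-05), as was the lipid-presenting Cd1d1 (1.25, adjusted p = 0.00168), which was called lower in Tspan8posMHCIIlo than in Tspan8negMHCIIlo (-1.40, adjusted p = 0.00027). Fcgrt, the neonatal Fc receptor chain that also binds B2m, was called lower in the same comparison (-1.31, adjusted p = 0.00285). H2-Q1 was called higher in Tspan8negMHCIIhi than in Tspan8negMHCIIlo at 6.35 to 20.1 CPM (1.25, adjusted p = 0.00988).

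The regulators of the 2 classes differed. Ciita had 128.5 and 130.7 CPM in Tspan8negMHCIIlo, 345.8 and 357.5 CPM in Tspan8negMHCIIhi, 99.85 and 118.5 CPM in Tspan8posMHCIIhi, and 19.18 and 18.51 CPM in Tspan8posMHCIIlo, and it was called in all 4 comparisons and in the interaction (1.10, adjusted p = 0.00627). Nlrc5 was highest in the subset in which Ciita was lowest. Rfx5, a subunit of the factor on which both transactivators act, had 150.3 and 143.9 CPM in Tspan8negMHCIIhi and 53.15 to 73.72 CPM elsewhere, and was called lower in Tspan8posMHCIIhi (-1.07, adjusted p = 0.000333) and higher in Tspan8negMHCIIhi than in Tspan8negMHCIIlo (1.23, adjusted p = 0.000136). Irf8 (1.78 in Tspan8neg and 1.504 in Tspan8pos) and the NF-kappa B subunit Relb (1.18, in Tspan8neg) were higher in MHCIIhi. The sums of macrophage and of dendritic cell markers were also higher in MHCIIhi in both Tspan8 classes. Their part in the values of Ciita, Rfx5, Irf8 and Relb was not tested. Ezh2, a histone methyltransferase that can silence class I genes, had 18.51 to 22.08 CPM in the Tspan8pos and 39.76 to 62.05 CPM in the Tspan8neg libraries, called in both gates (-1.37 and -1.27).

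Of the factors of the interferon response, 4 were called lower in MHCIIhi within Tspan8neg mTECs. Irf7 had 275.5 and 232.7 CPM in Tspan8negMHCIIlo, 52.24 and 58.52 CPM in Tspan8negMHCIIhi, 206.4 and 223.2 CPM in Tspan8posMHCIIhi, and 419.2 and 390.9 CPM in Tspan8posMHCIIlo. Its change with the gate in Tspan8neg mTECs was -2.19 (adjusted p = 1.88e-06), and the interaction was called (1.28, adjusted p = 0.00244). Stat2 (-1.92, adjusted p = 2.12e-05), Irf9 (-1.35, called) and Irf3 (-1.01, called) were lower in the same comparison, which makes 4 of 21 regulators called lower and 4 called higher in it, where 9.67% and 13.1% of all genes were called. Irf1, which acts downstream of interferon gamma, passed the test in none of the 4 comparisons of neighbouring subsets, with log2 fold changes between -0.46 and -0.08. Of the 11 receptors, kinases and SOCS genes, 4 were called lower in Tspan8negMHCIIhi than in Tspan8negMHCIIlo (Socs3, Ifnlr1, Ifngr1 and Ifnar2, at -2.40, -2.63, -1.83 and -1.14), and the interactions of Ifngr1 (1.95) and Socs3 (1.84) were called. The thymocyte markers were also lower in this comparison, and their part in it was not tested.

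**Figure D5:**
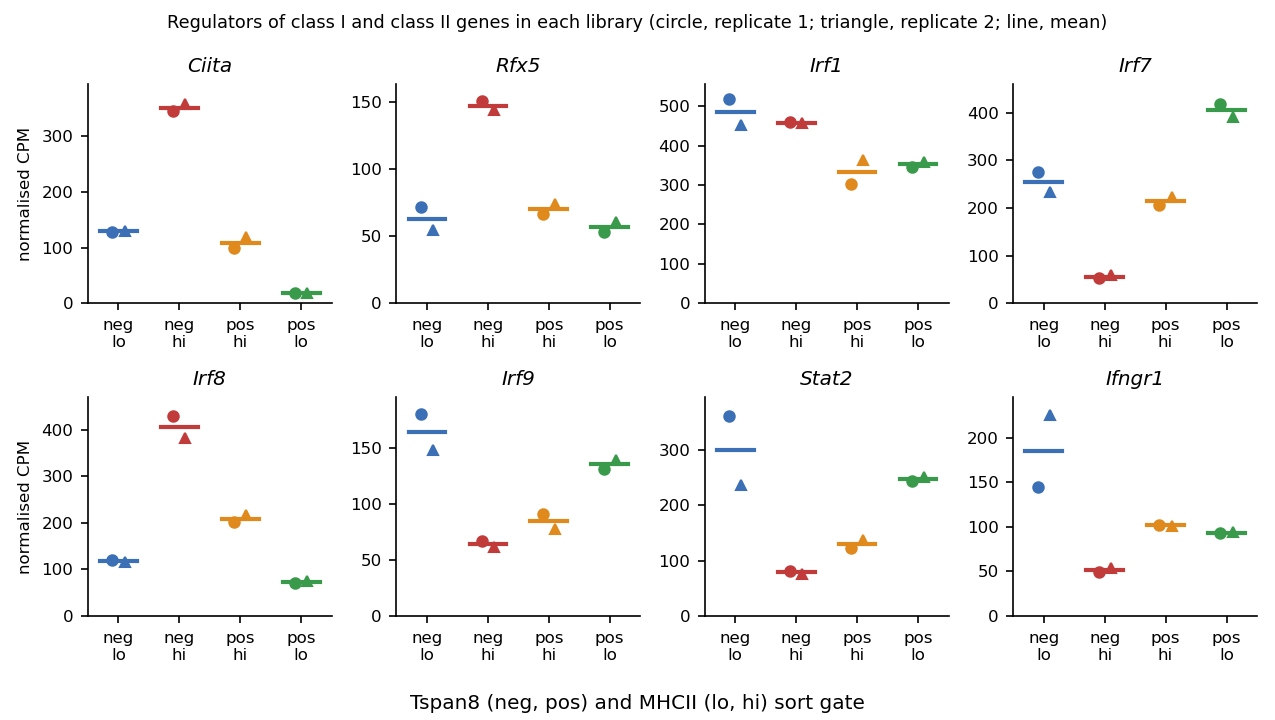
Normalised CPM (y axis, from 0, a scale of its own in each panel) of 8 regulators in each library of the 4 subsets (x axis), with circles for replicate 1, triangles for replicate 2 and lines for the mean. Ciita, Rfx5 and Irf8 are highest in Tspan8negMHCIIhi, in which Irf7 (52.24 and 58.52 CPM), Stat2 and Ifngr1 are lowest.

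Of 11026 genes whose mean reached 10 CPM, those most like Nlrc5 over the 8 libraries (Pearson r of log2 CPM) were Crybg3 (0.973), Anxa7 (0.971), Zc3h7a (0.969), Nr6a1 (0.967) and Rab18 (0.965). Those most like the centred mean of the 10 members were Acer2 (0.986), Rhbg (0.985), 9130230L23Rik (0.984), Cptp (0.984) and Cutal (0.98). Rhbg, an ammonium transporter, had means of 1.22, 7.54, 65.9 and 63.6 CPM in Tspan8negMHCIIlo, Tspan8negMHCIIhi, Tspan8posMHCIIhi and Tspan8posMHCIIlo. These are the highest of many values and are given as a description.

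Some members share sequence with other genes, so part of their counts is uncertain. Of all windows of 54 bases in their transcripts, 8.06% for H2-K1 and 10.5% for H2-D1 also occurred in transcripts of other genes, among them H2-Q7 (1526 to 2630 CPM), H2-Q10 and each other. Tapbp (22.5%, mostly Gm19412 on the opposite strand), Psmb8 (11.4%, Gm20496) and Tap2 (11.1%, Gm15821) overlap genes that were at no more than 2.9, 0.405 and 13 CPM. Psmb9 and Tap1 overlap on opposite strands (4.06% and 3.18%). B2m and Psmb10 shared 0 windows and Nlrc5 shared 0.291%. Of the constitutive subunits, Psmb5 shared 50.8%, mostly with Gm3375, and was the least certain of the genes used for the ratios.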

How the data were processed

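The 8 mTEC libraries were grouped by the subset and replicate number in their labels. The authors deposited whole-number estimated counts for each gene, without normalization, restricted to genes with a count in at least 2 libraries. Reads had been quantified by Salmon 1.8.0 against the Gencode mouse transcriptome (mm10), and DESeq2 1.30.0 is listed in the submitters' processing notes. Library preparation is described as tagmentation of cDNA in the methods and as a stranded mRNA kit in the labels, so the use of strand is uncertain.

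Symbols, exon lengths and coordinates were taken from a later GENCODE release on GRCm38 (25336 of 25466 identifiers matched, 99.49%). All libraries entered a single edgeR 4.0.16 model (R 4.3.3, limma 3.58.1) with TMM scaling, filterByExpr and the quasi-likelihood F test. P-values were two-sided and Benjamini-Hochberg adjusted over 17006 genes. Calls required both an adjusted p below 0.01 and a change of 1 or more on the log2 scale. Standard errors were derived from the fold change and F. Subunit ratios used a pseudocount of 0.5 on the counts. The fit was tested on simulated data.

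The members and gene lists were chosen with earlier results of these data known. Genes named were the members, the sort checks, a fixed set (Psmb5, Psmb6, Psmb7, Psmb11, Psme1, Psme2, Irf1, Ciita, Rfx5), up to 3 called genes per list, comparison and direction with the largest changes and at least 10 CPM on average, and the 5 genes most correlated with Nlrc5 and with the members' mean. Psma4, Psma5, Psma6, Psmd4, Psmd8, Canx, Npepps, Irf3, Relb and Ifnar2 were named after their values were seen. A further gene of the fixed set is not reported here. Replicates of every subset differed by more than sampling noise (chi-square per gene 3.29 to 9.84). Alternatives were DESeq2 1.42.0, its size factors, other filters and thresholds, fits of 4 libraries, a replicate block and leaving out each library.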

Additional observations from a re-analysis of the deposited data

Results flagged for a closer look

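Tapbp was flagged because its MHCII difference was not the same in the 2 Tspan8 classes by the test of the difference itself. The log2 difference between MHCIIhi and MHCIIlo was 0.89 in Tspan8neg and 0.00 in Tspan8pos mTECs, and the interaction was -0.887 (SE 0.176, adjusted p = 0.00895 in edgeR's quasi-likelihood test, 2 libraries per subset), under the 2-fold limit used for calls. Both Tspan8negMHCIIlo libraries (272.7 and 240.9 CPM) lay below the other 6 (463.2 to 499.4 CPM). These 2 libraries also had the highest sums of thymocyte markers (451.6 and 1270 CPM), whose part in the result was not tested. Without Tspan8negMHCIIlo replicate 2, which holds the most, the interaction was -0.79. Replicate 1, which remained in that fit, still had a higher sum than any library of the other subsets. Leaving out each library in turn gave an interaction of -0.97 to -0.79. The adjusted p of 0.01 was missed without any library of the other subsets.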

How the results depend on the processing

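Of 790 log2 fold changes of the members under the alternatives, 752 kept their direction and side of the call. A call was gained by 13 and lost by 6, and 19 changed sign, none of the latter being called as reported. The cause was not tested. The only calls as reported were those of Psmb10 for Tspan8 in MHCIIhi and for MHCII in Tspan8neg, so nearly all of the 752 stayed uncalled. Of the 13 gains, 10 came from dropping the limit on the fold change. Without a limit on the fold change, 5, 2, 4 and 1 members passed for Tspan8pos against Tspan8neg in MHCIIlo, in MHCIIhi, MHCIIhi against MHCIIlo in Tspan8neg, and the interaction. Leaving out each library gave 0 to 1 members called for Tspan8 in MHCIIlo (1, Nlrc5, without Tspan8negMHCIIlo replicate 1), 0 to 2 for MHCII in Tspan8neg and 0.199 to 0.617 for the MHCII difference of the Psmb10 to Psmb7 ratio, the highest without Tspan8posMHCIIhi replicate 1.

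Sign changes in Tspan8pos against Tspan8neg in MHCIIhi were those of Tapbp, at -0.0449 with the DESeq2 test, -0.0475 with its size factors, -0.0132 with no filter and -0.0252 with at least 10 counts in 4 libraries. Leaving out each library gave -0.0729 to 0.0805 for Tapbp, -0.0190 to 0.25 for B2m and -0.0399 to 0.43 for Psmb9 there. It gave -0.0880 to 0.22 for Psmb8 and -0.000413 to 0.24 for Psmb9 for Tspan8 in MHCIIlo, -0.0837 to 0.25 for Psmb8 and -0.49 to 0.30 for Nlrc5 for MHCII in Tspan8neg, -0.25 to 0.0135 for Tap2 and -0.0418 to 0.0741 for Tapbp for MHCII in Tspan8pos, and -0.15 to 0.33 for Psmb9 and -0.61 to 0.16 for Nlrc5 for the interaction.

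In fits of only the 4 libraries compared, 2 members passed the adjusted p without the fold limit for Tspan8 in MHCIIlo (5 as reported) and 5 for Tspan8 in MHCIIhi (2 as reported). A replicate block gave 0, 1, 1, 0 and 0 members called in the same 5 comparisons, as without it, and 6 and 3 past the adjusted p alone in the Tspan8 comparisons. The numbers pair no samples by the labels, and same-numbered libraries deviated together with correlations of -0.003 to 0.089. Where a subset was left with 1 library, its spread was taken from the others. With 2 libraries per subset, changes well under 2-fold were at the limit of detection.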
